A study of Mus musculus with 16 samples.

Results

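The enzymes that crosslink and hydroxylate collagen were followed here, chosen by gene family and matched by symbol: the lysyl oxidases Lox, Loxl1, Loxl2, Loxl3 and Loxl4, the lysyl hydroxylases Plod1, Plod2 and Plod3, and the catalytic subunits P4ha1 and P4ha2 of collagen prolyl 4-hydroxylase. All 10 had a probe on the array and all 10 passed the filter on dim probes, among 24363 genes tested; together they carried 18 probes. Liver RNA of male BALB/c mice, 6 to 8 weeks old when treatment began, was hybridised to single-colour arrays, 1 array per sample. Wild-type (WT) mice and mice lacking lipocalin-2 (Lcn2-/-) were compared, each either as controls, which the series describes as corn oil treated, or after carbon tetrachloride (CCl4), a hepatotoxin used to produce liver fibrosis. The CCl4 groups received 0.5 ml per kg in corn oil into the peritoneum on 2 days of each of 4 weeks, and liver was collected 48 h later than the last of these injections. Among controls there were 4 WT and 3 Lcn2-/- arrays, and after CCl4 there were 5 WT and 4 Lcn2-/- arrays. The deletion is germline and was crossed onto BALB/c, so every cell type of both Lcn2-/- groups, controls included, carries it.

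Collagen chains are modified in the endoplasmic reticulum before they fold. Prolyl 4-hydroxylase makes the hydroxyproline that stabilises the triple helix, and the Plod enzymes hydroxylate lysine, of which the Plod2 product lies at the telopeptides where stable crosslinks start. Outside the cell the lysyl oxidases, copper enzymes, oxidise lysine and hydroxylysine to the aldehydes that join collagen and elastin molecules. In liver these crosslinks are known for making scar stiffer and harder to degrade, and activated stellate cells and portal fibroblasts are known sources of the enzymes.

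The Lcn2 probe checked the genotype labels. It read 13.80 to 17.57 on the log2 scale in the WT groups and 10.46 to 12.25 in the Lcn2-/- groups, without overlap; whether it lies inside the deleted sequence was not analysed here. Arrays of a group correlated at r = 0.974 to 0.992 across genes, and 51.6% to 60.9% of gene spots were well above background. Hepatocyte markers passed in no comparison (0 of 9 tested in each), with a summed signal of 2757000 to 2923000 in WT controls and 2796000 to 3135000 after CCl4. In Lcn2-/- mice it was 2910000 to 3036000 in controls and spread more widely after CCl4, from 2623000 to 3322000. All 7 control arrays and WT CCl4 1 lay on 1 slide, and WT CCl4 2 to 5 with the 4 Lcn2-/- CCl4 arrays on the other. WT CCl4 1 alone therefore separates treatment from slide. In Lcn2-/- mice treatment and slide coincide, so a slide block there takes the slide shift from the WT arrays.

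CCl4 raised 5 of the 10 enzymes in each genotype and lowered none past the threshold of an adjusted p of 0.05 (limma, Benjamini-Hochberg over all genes tested). With slide as a fixed block this count fell to 1 in each genotype, Loxl1, against 5.32% of all genes in WT and 1.75% in Lcn2-/- mice. Without that block, Loxl1, Loxl2, Loxl3 and Plod2 rose in both genotypes, Lox passed in WT, against controls mostly near background, and Loxl4 in Lcn2-/- mice. Over all genes tested, 8.05% rose and 8.63% fell in WT, 16.7% in either direction, and 6.56% rose and 5.58% fell in Lcn2-/- mice, 12.1% in either direction. Genes that rose in both genotypes were 5% of those tested, and 4 of the 10 enzymes did. At an unadjusted p under 0.05 the members numbered 8 in WT, against 30.6% of all genes, and 7 in Lcn2-/- mice, against 27%. CCl4 and control arrays did not overlap for 7 members in WT, 6 higher and 1 lower, against 17.4% of all genes (8.09% higher, 9.31% lower), and for 6 in Lcn2-/- mice, 5 higher and 1 lower, against 24.8% (12.1% higher, 12.7% lower). The median log2 difference was 0.68 over the members and -0.03 over all genes in WT, and 0.78 against -0.023 in Lcn2-/- mice. In bulk liver RNA, more cells of a type and more RNA per cell cannot be told apart.

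**Figure D1:**
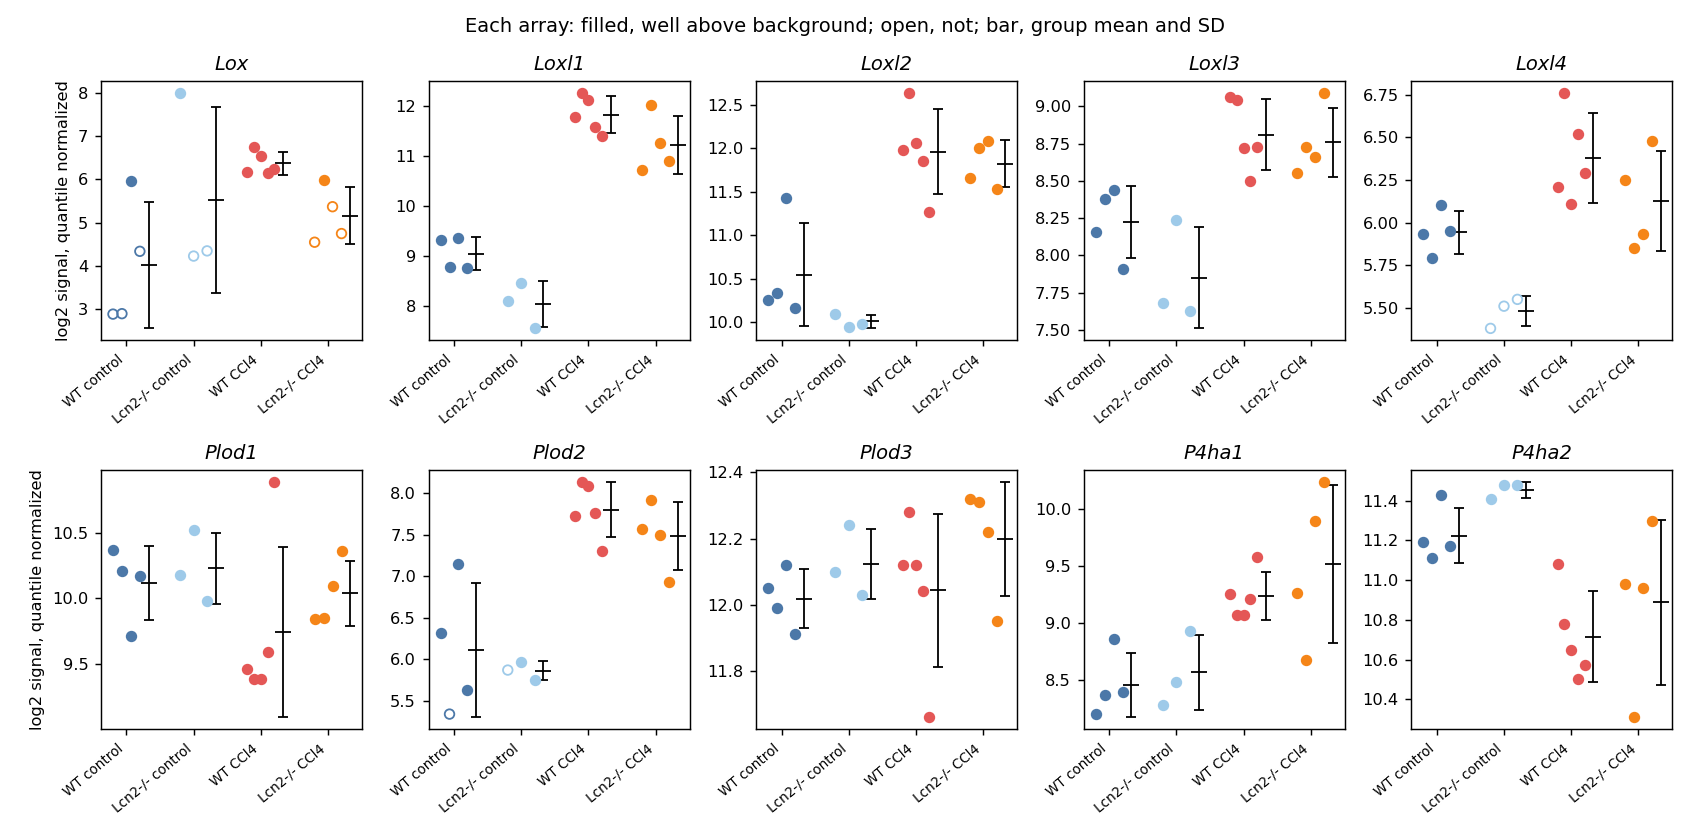
Quantile-normalized log2 signal (y axis, a different range in each panel) of each of the 10 enzymes on every array, by group; filled points were well above background, open points were not, and bars give the group mean and SD. Loxl1, Plod2 and Loxl3 show CCl4 points that lie above every control point of the same genotype, while Plod3 stays between 11.66 and 12.32 throughout.

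Loxl1, the lysyl oxidase best known for assembling elastic fibres, had the largest difference among the 7 members that were well above background on all 16 arrays, in both genotypes. In WT controls its log2 signal was 9.31, 8.77, 9.35 and 8.75, and in Lcn2-/- controls 8.09, 8.46 and 7.55. After CCl4 it was 11.77, 12.26, 12.12, 11.57 and 11.39 in WT and 10.71, 12.01, 11.25 and 10.89 in Lcn2-/- mice, so no CCl4 array came within 1 log2 unit of a control array. The rise was 2.78 ± 0.276 (SE) in WT, 6.86-fold, with an adjusted p of 1.85e-05. With the null allele it was 3.18 ± 0.314, 9.08-fold, with an adjusted p of 2.85e-05. It was the only member that stayed past the threshold in both genotypes with slide as a fixed block (2.73, adjusted p = 0.0063, and 3.12, adjusted p = 0.0153). The Lcn2-/- value of that fit assumes the slide shift that WT CCl4 1 gives in WT.

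A pair of probes covered Loxl1, both designed to the same RefSeq mRNA on the minus strand of chromosome 9, and their sequences are shown because they give the result from separate stretches of the transcript. The chosen probe lies at chr9:58138570-58138629 and the other at chr9:58145451-58145510 on build mm9; exon annotation of that build was not used here. The sequences are printed 5′ to 3′ in lower case with no part set off.
Loxl1 chosen probe: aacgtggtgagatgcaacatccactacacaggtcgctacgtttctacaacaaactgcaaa
Loxl1 other probe: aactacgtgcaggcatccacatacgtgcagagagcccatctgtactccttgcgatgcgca
The other probe rose by 2.68 ± 0.34 in WT, with an adjusted p of 0.000125 over the 33022 probes tested. On that probe no Lcn2-/- control array was well above background, so the rise in Lcn2-/- mice was at least 7.95-fold, from a measured mean of 5.5 to 8.49 (fitted adjusted p = 0.000245). Such bounds set the brighter group's mean against the lowest signal that counted as well above background on each dim array, or the probe's own signal where that was higher. They allow for the background level and not for the spread between arrays, so a smaller true difference is not excluded.

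Loxl2, a lysyl oxidase with scavenger receptor domains that crosslinks fibrillar and basement membrane collagen, rose in both genotypes. Its log2 signal was 10.26, 10.34, 11.43 and 10.17 in WT controls, and 11.98, 12.64, 12.06, 11.86 and 11.27 after CCl4. WT control 3 lay above WT CCl4 5, so the WT groups overlapped. Lcn2-/- controls read 10.10, 9.95 and 9.98 and Lcn2-/- CCl4 arrays 11.66, 12.01, 12.09 and 11.53, well apart. The rise was 1.41 ± 0.274, or 2.67-fold, in WT (adjusted p = 0.00267) and 1.81 ± 0.312, or 3.51-fold, in Lcn2-/- mice (adjusted p = 0.0018). With slide as a fixed block both sizes were kept (1.44 and 1.84) and neither passed (adjusted p = 0.102 and 0.129).

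The name Loxl2 was on 4 probes. The chosen probe lies at chr14:70095254-70095313, and 2 others lie upstream on the same plus-strand transcript, at chr14:70092141-70092200 and chr14:70090017-70090076. The last lies elsewhere, at chr2:71475085-71475144, on a predicted transcript. Sequences of the 2 upstream probes and the first 30 bases of the chromosome 2 probe are shown because these probes share a name and lie in different places. Whether the chromosome 2 probe measures Loxl2 was not settled here.
Loxl2 probe at chr14:70092141-70092200: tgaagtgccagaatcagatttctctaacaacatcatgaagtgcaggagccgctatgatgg
Loxl2 probe at chr14:70090017-70090076: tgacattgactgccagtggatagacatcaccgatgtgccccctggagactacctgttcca
Probe at chr2:71475085-71475144, first bases: ggagcagacctttcctgccttatcccaaag
The chromosome 2 probe read 7.29 to 7.83 in WT controls and 7.02 to 7.36 after CCl4, a difference of -0.29 ± 0.232 (adjusted p = 0.431 over all probes), and in Lcn2-/- mice the difference was -0.35 ± 0.264 (adjusted p = 0.434). The probe at 70092141 rose by 1.27 ± 0.349 in WT and 1.97 ± 0.397 in Lcn2-/- mice (adjusted p = 0.0242 and 0.00532). The probe at 70090017 was 0.45 ± 0.166 higher in WT, which did not pass (adjusted p = 0.0879), and rose by 0.76 ± 0.189 in Lcn2-/- mice (adjusted p = 0.019). The 3 chromosome 14 probes had the same direction in both genotypes and the chromosome 2 probe the other.

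**Figure D2:**
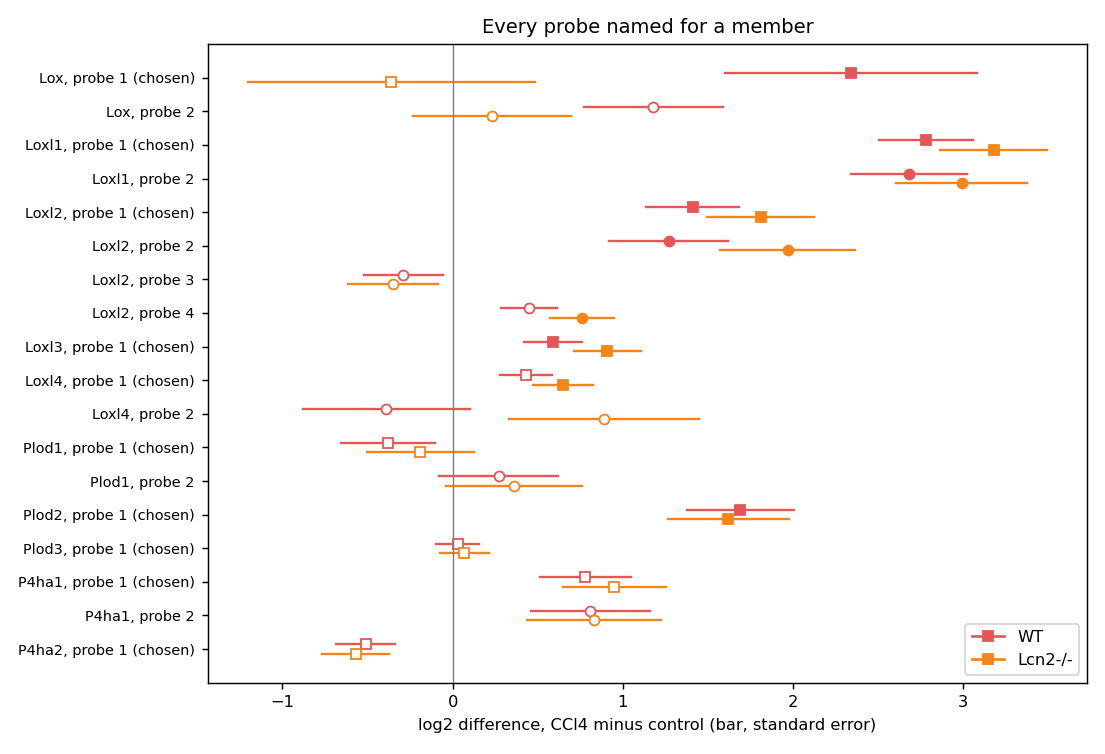
Log2 difference (x axis, CCl4 minus control) with its standard error for each of the 18 probes named for the 10 enzymes, in WT and Lcn2-/- mice; squares mark the probe chosen for the gene, filled symbols an adjusted p under 0.05 over all probes. Both Loxl1 probes lie at 2.68 or above, while the Loxl2 probe 3, on chromosome 2, lies at -0.29 and -0.35; points of the second Lox and Loxl4 probes rest on groups with few or no arrays well above background.

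Loxl3 and Loxl4, the remaining scavenger receptor lysyl oxidases, moved less. Loxl3 read 8.16, 8.38, 8.44 and 7.91 in WT controls and 9.06, 9.04, 8.72, 8.5 and 8.73 after CCl4, and 7.68, 8.24 and 7.63 in Lcn2-/- controls and 8.55, 8.73, 8.66 and 9.09 after CCl4. Neither pair of groups overlapped, although WT control 3 came close to WT CCl4 4. Loxl3 rose by 0.59 ± 0.172 in WT (1.50-fold, adjusted p = 0.0307) and by 0.91 ± 0.196 in Lcn2-/- mice (1.88-fold, adjusted p = 0.00734). The WT call was lost when WT control 1, WT control 4, WT CCl4 1 or WT CCl4 2 was left out, with adjusted p up to 0.0936. Among the 13 other alternatives it passed in 8, with adjusted p up to 0.175. Those that lost it included slide as a fixed block (0.84, adjusted p = 0.11) and the replicate block (0.61, adjusted p = 0.0534). The Lcn2-/- call was kept in all 16 fits without 1 array and lost with slide as a fixed block (1.23, adjusted p = 0.0923).

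Loxl4 was dim. It read 5.93, 5.79, 6.10 and 5.95 in WT controls and 6.21, 6.76, 6.11, 6.52 and 6.29 after CCl4, groups that did not overlap, and the difference of 0.43 ± 0.152 did not pass (adjusted p = 0.0654), though it did without WT CCl4 3 or Lcn2-/- CCl4 4 (0.0444 and 0.0426). Among the 13 other alternatives it passed in 1, with differences from 0.02 to 0.5 and adjusted p from 0.0104 to 0.973. Lcn2-/- controls read 5.38, 5.51 and 5.55, on no array well above background, and after CCl4 6.25, 5.85, 5.93 and 6.48, all well above. The rise in Lcn2-/- mice was therefore at least 1.57-fold (fitted adjusted p = 0.0245). It was lost without Lcn2-/- control 1 or 2 or Lcn2-/- CCl4 1 or 4, with adjusted p from 0.0577 to 0.102, and passed in 5 of the 12 other alternatives, whose differences ran from 0.29 to 0.77 and adjusted p from 0.00477 to 0.523, the latter with slide as a fixed block. The other Loxl4 probe, well above background on 8 of 16 arrays, was 0.39 lower in WT (adjusted p = 0.644). No Lcn2-/- control and 1 of 4 Lcn2-/- CCl4 arrays were well above background on it, so no difference is given for that genotype.

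Lox, the founding lysyl oxidase and a crosslinker of fibrillar collagen, was the least settled of the family. Its log2 signal was 2.89, 2.90, 5.97 and 4.34 in WT controls, where only WT control 3 was well above background. After CCl4 it read 6.17, 6.75, 6.53, 6.15 and 6.24, all well above. Only 1 of 3 Lcn2-/- controls and 1 of 4 Lcn2-/- CCl4 arrays were well above background: the controls read 8, 4.23 and 4.35 and the CCl4 arrays 4.55, 5.99, 5.37 and 4.75. The WT groups did not overlap and the fitted difference of 2.34 ± 0.741 on the log2 scale passed (adjusted p = 0.0438). With 3 of 4 controls not well above background its size is uncertain, as are those of the other fitted Lox differences given here. In 10 of the 16 fits that left out 1 array it no longer passed, with adjusted p up to 0.148; these were the fits without WT control 1, 2 or 4, without any of the 5 WT CCl4 arrays, and without Lcn2-/- CCl4 1 or 3. Among the 13 other alternatives it passed in 6, with adjusted p from 0.00633 to 0.488. It missed with slide as a fixed block (2.15, adjusted p = 0.365), within slide, with the replicate block, with 75th percentile scaling, with no filter on dim probes and with normexp background correction (0.83, adjusted p = 0.0757), and with slide tier as a block.

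With the null allele the Lox difference was -0.36 ± 0.844 (95% confidence interval -2.17 to 1.45, adjusted p = 0.823), and 1 array decided its sign. Without Lcn2-/- control 1 it was 0.87 (adjusted p = 0.513). The other Lox probe read 2.93 on that same array, not well above background, against 8 on the chosen probe. On that other probe only WT control 3, WT CCl4 2 and WT CCl4 4 were well above background. It read 2.88 to 5.33 in WT controls and 4.36 to 5.04 after CCl4, groups that overlapped, and no difference is given for Lcn2-/- mice, where no array of either treatment was well above background.

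Among the lysyl hydroxylases only Plod2, which acts on telopeptide lysine, rose. It read 6.32, 5.34, 7.15 and 5.63 in WT controls, of which WT control 2 was not well above background, and 7.73, 8.14, 8.08, 7.76 and 7.30 after CCl4. Lcn2-/- controls read 5.87, 5.97 and 5.75, where Lcn2-/- control 1 was not well above background, and Lcn2-/- CCl4 arrays 7.57, 7.92, 7.5 and 6.93. No groups overlapped within a genotype. The rise was 1.69 ± 0.312, or 3.24-fold, in WT (adjusted p = 0.00186) and 1.62 ± 0.355, or 3.07-fold, in Lcn2-/- mice (adjusted p = 0.00839). With normexp background correction it was 0.94 in both genotypes and passed (adjusted p = 0.0015 and 0.00599), so the folds depend on how signal near background is treated. It passed in all 16 fits without 1 array in both genotypes. With slide as a fixed block it was 1.62 and 1.53 and passed in neither (adjusted p = 0.105 and 0.276).

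WT control 3 was the highest WT control for 9 of the 10 enzymes, all but Plod1. It also had the highest summed signal of the 12 tested collagen, elastin and fibrillin genes among WT controls, 95910 against 39060 to 42830, and of macrophage markers, 151400. Leaving out a high control raises these differences by construction: without WT control 3 and Lcn2-/- control 3, a setting chosen after the values were seen, they were 2.99 for Lox, 1.71 for Loxl2 and 2.04 for Plod2 in WT.

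Plod3, which both hydroxylates lysine and adds sugars to it, was flat. It lay between 11.66 and 12.32 on all 16 arrays. The difference was 0.03 in WT (95% confidence interval -0.24 to 0.29) and 0.07 in Lcn2-/- mice (-0.23 to 0.38), so changes larger than 0.38 on the log2 scale lay outside both intervals.

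Plod1, which hydroxylates lysine in the helical part of the chain, did not pass in either genotype. It read 10.37, 10.21, 9.71 and 10.17 in WT controls and 9.46, 9.38, 9.38, 9.59 and 10.89 after CCl4, where WT CCl4 5 stood far above the rest. The difference was -0.38 ± 0.276 (adjusted p = 0.385), and without WT CCl4 5 it was -0.67 and passed (adjusted p = 0.017). Among the 13 other alternatives it passed in 2. These included the replicate block, in which WT CCl4 5 has no partner (-0.67, adjusted p = 0.0185). In Lcn2-/- mice it was -0.19 ± 0.314 (adjusted p = 0.738). Both Plod1 probes are shown because their values differ in sign and the second crosses a splice junction: its 60 bases span 1421 bases of the genome, chr4:147290037-147291457, while the chosen probe lies at chr4:147302568-147302627, both on the minus strand of mm9.
Plod1 chosen probe: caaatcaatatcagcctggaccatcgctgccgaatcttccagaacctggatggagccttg
Plod1 other probe: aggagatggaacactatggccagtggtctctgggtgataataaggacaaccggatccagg
The other probe was 0.27 ± 0.352 higher in WT and 0.36 ± 0.4 higher in Lcn2-/- mice after CCl4 (adjusted p = 0.663 and 0.617). On WT CCl4 5 it read 9.56, neither the highest nor the lowest value of its group.

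The prolyl 4-hydroxylase subunits differed in sign and lay near the threshold, which neither passed. In WT, P4ha1 passed under 4 and P4ha2 under 5 of 13 alternative settings other than leaving out 1 array, with adjusted p from 0.0101 to 0.347 and from 0.0108 to 0.806. With the null allele the counts were 5 and 1 of 12. P4ha1, the main catalytic subunit in most cells, read 8.20, 8.37, 8.86 and 8.39 in WT controls and 9.25, 9.07, 9.07, 9.21 and 9.58 after CCl4. Lcn2-/- arrays read 8.28, 8.48 and 8.93 in controls and 9.26, 8.67, 9.89 and 10.24 after CCl4, where Lcn2-/- CCl4 2 fell among the controls. The differences were 0.78 ± 0.265 in WT (95% confidence interval 0.22 to 1.35, adjusted p = 0.0574) and 0.95 ± 0.302 in Lcn2-/- mice (0.31 to 1.60, adjusted p = 0.0542). Left-out arrays moved P4ha1 across the threshold: it passed in WT without WT control 3, Lcn2-/- CCl4 2 or Lcn2-/- CCl4 4 (lowest adjusted p = 0.0205), and in Lcn2-/- mice without Lcn2-/- control 3 or Lcn2-/- CCl4 2 (lowest 0.00776). Its other probe was 0.81 ± 0.347 and 0.83 ± 0.395 higher (adjusted p = 0.134 and 0.202).

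P4ha2, the subunit known from cartilage and bone, was lower. It read 11.19, 11.11, 11.43 and 11.17 in WT controls and 11.08, 10.78, 10.65, 10.50 and 10.57 after CCl4. Lcn2-/- arrays read 11.41, 11.48 and 11.48 in controls and 10.98, 10.31, 10.96 and 11.30 after CCl4. CCl4 arrays lay below all controls of their genotype in both, WT CCl4 1 only just. The differences were -0.51 ± 0.172 (95% confidence interval -0.88 to -0.14, adjusted p = 0.0573) and -0.57 ± 0.196 (-0.99 to -0.15, adjusted p = 0.0729). It passed in WT without WT CCl4 1, Lcn2-/- CCl4 2 or Lcn2-/- CCl4 4 (lowest adjusted p = 0.016) and in Lcn2-/- mice without Lcn2-/- CCl4 4 (0.0267). With slide as a fixed block the differences were -0.14 and -0.11 (adjusted p = 0.806 and 0.906).

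The upstream sequences of P4ha1 and P4ha2 are shown because both genes are known targets of hypoxia inducible factors and their values here differed in sign. Each run is the 250 bases before the gene's start in the RefSeq promoter table of build GRCm38.p6, on the plus strand, at chr10:59323046-59323295 and chr11:54100674-54100923. Capitals mark the core of the hypoxia response element, searched as ACGTG and GCGTG on both strands (CACGT and CACGC on the strand shown), overlapping matches counted.
P4ha1: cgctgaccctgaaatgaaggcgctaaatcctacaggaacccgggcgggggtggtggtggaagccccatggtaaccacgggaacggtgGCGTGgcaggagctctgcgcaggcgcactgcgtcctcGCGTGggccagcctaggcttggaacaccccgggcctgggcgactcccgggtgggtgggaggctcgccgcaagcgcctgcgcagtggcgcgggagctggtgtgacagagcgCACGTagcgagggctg
P4ha2: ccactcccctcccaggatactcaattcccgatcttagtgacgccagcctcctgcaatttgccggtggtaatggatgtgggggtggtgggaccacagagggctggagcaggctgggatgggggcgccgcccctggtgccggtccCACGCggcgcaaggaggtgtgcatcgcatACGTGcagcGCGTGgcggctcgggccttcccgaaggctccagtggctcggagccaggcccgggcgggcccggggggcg
Each held 3 matches, Plod3 held 4, and Plod1 and Loxl4 held 1. At least 1 match occurs in 38.6% and at least 3 in 6.58% of the 32851 windows of this length in the table. A match describes the letters only. Windows were matched by symbol for 5 of the 10 enzymes; Lox, Loxl1, Loxl2, Loxl3 and Plod2 were not among them.

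Of the other genes tied to oxygen sensing, 1 of 17 rose in WT and 0 in Lcn2-/- mice after CCl4 (limma). Over all genes tested, 8.05% rose in WT and 6.56% in Lcn2-/- mice. In the list 16 and 17 did not pass, and its median was 0.11 and 0.19. The gene that rose was Ankrd37, a target of hypoxia inducible factors, at 0.98 ± 0.268 (adjusted p = 0.022), against 0.72 ± 0.305 in Lcn2-/- mice (adjusted p = 0.142). Another gene of the list, Pdk1, which restrains pyruvate oxidation, was the 1 of 17 that differed by genotype, 1.20 ± 0.155 higher in Lcn2-/- mice under CCl4 and 1.24 ± 0.176 higher in controls (adjusted p = 0.00128 and 0.00266); it was named after its values were seen.

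The effect of the genotype on the enzymes was tested within each treatment. Under CCl4 none of the 10 differed between Lcn2-/- and WT mice past the threshold, where 0.649% of all genes did (0.3% higher and 0.349% lower). By unadjusted p, 1 member fell under 0.05, against 13.7% of all genes. That member was Loxl1, 0.61 ± 0.276 lower in Lcn2-/- mice (adjusted p = 0.354). Lox was the only member whose groups did not overlap: all 4 Lcn2-/- CCl4 arrays, at 4.55 to 5.99, lay below all 5 WT CCl4 arrays, at 6.15 to 6.75. Groups did not overlap for 5.66% of all genes, 3.35% with the Lcn2-/- arrays lower and 2.31% with them higher. The fitted difference of -1.20 ± 0.741 did not pass (adjusted p = 0.495). On the other Lox probe no Lcn2-/- CCl4 array and 2 of 5 WT CCl4 arrays were well above background, and the arrays read 2.91 to 3.92 and 4.36 to 5.04 (fitted adjusted p = 0.0891 over all probes), mostly levels near background for which no fold is given.

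In controls none of the 10 passed either, where 0.517% of all genes did (0.226% higher and 0.291% lower), and 2 had an unadjusted p under 0.05, against 8.32% of all genes. Loxl1 was 1.01 ± 0.314 lower in Lcn2-/- controls (adjusted p = 0.253), and on its other probe, where no Lcn2-/- control was well above background, WT controls were at least 1.97-fold higher (fitted adjusted p = 0.461). Loxl4 was at least 1.38-fold higher in WT controls, with no Lcn2-/- control well above background (fitted adjusted p = 0.406). On its other probe WT controls were at least 3.73-fold higher. There WT controls read 5.18 to 7.44, with 3 of 4 well above background, and no Lcn2-/- control was well above background. Loxl1, Loxl2 and Loxl4 had all 3 Lcn2-/- controls below all 4 WT controls, an order that 5.58% of all genes showed, while 4.15% showed the opposite and 9.74% either. Array weights, which count arrays by their agreement with their group, brought 3 members past the threshold here, Loxl1 (-0.99), Loxl4 (-0.51) and Lox (3.41), and 5.14% of all genes. The unweighted fitted Lox difference was 1.50 ± 0.844 (adjusted p = 0.75), and it ranged from 0.26 to 2.15 over fits without 1 array. The other Lox probe was lower, not higher, in Lcn2-/- controls, at 2.94 against 3.7 in WT, with 0 of 3 and 1 of 4 arrays well above background. The WT and Lcn2-/- control arrays lay in different tiers of their slide, as did the CCl4 arrays of both genotypes apart from WT CCl4 1, so tier and genotype cannot be told apart by more than that array.

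The difference between the CCl4 responses of the 2 genotypes was tested as an interaction. No member passed, where 0.0534% of all genes did (13 of 24363, 0.0205% higher and 0.0328% lower); 1 had an unadjusted p under 0.05, against 3.31% of all genes. Lox was that member, with a response 2.71 ± 1.12 smaller in Lcn2-/- mice (adjusted p = 1); this fitted value rests on groups in which 1 of 4 WT controls, 1 of 3 Lcn2-/- controls and 1 of 4 Lcn2-/- CCl4 arrays were well above background, and without Lcn2-/- control 1 the difference was -1.47. For Loxl1 the response was 0.40 larger in Lcn2-/- mice (95% confidence interval -0.49 to 1.3) and for Plod2 0.08 smaller (-1.09 to 0.94).

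**Figure D3:**
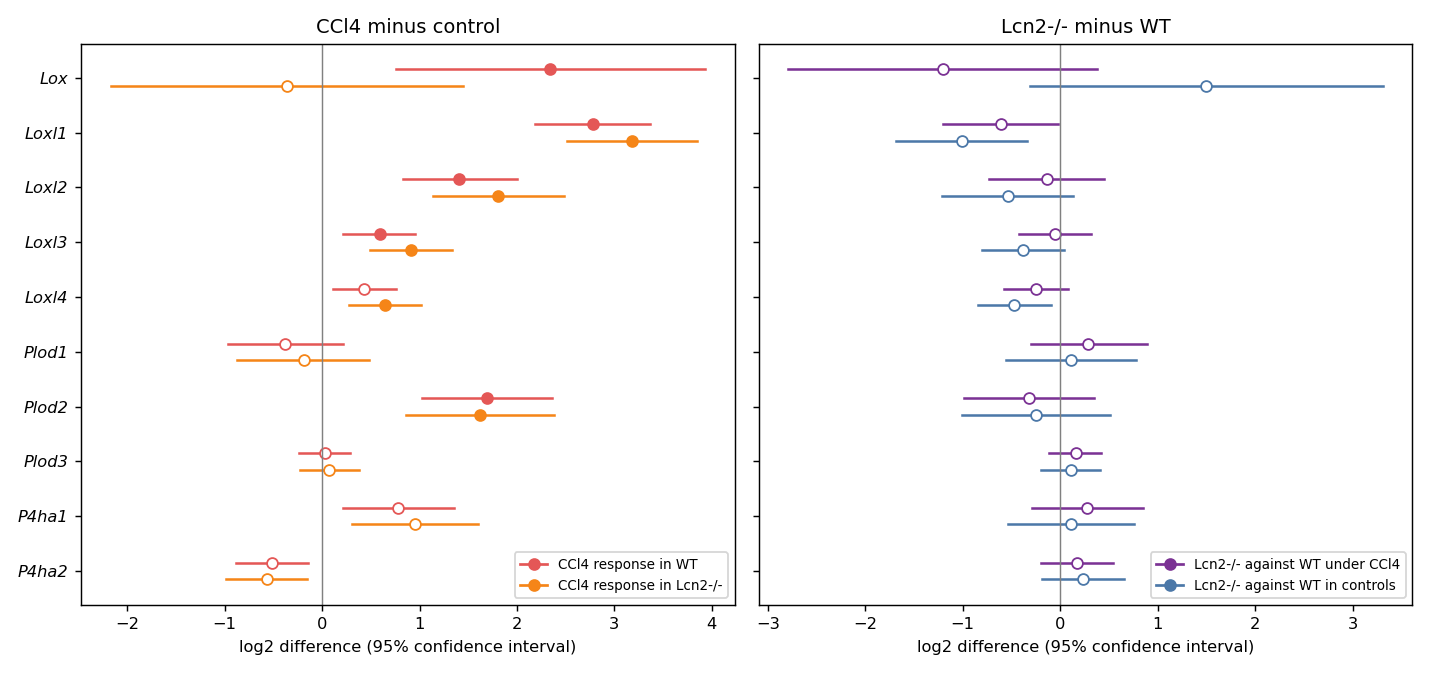
Log2 differences with 95% confidence intervals (x axis) for the 10 enzymes, on the left CCl4 minus control in WT and Lcn2-/- mice, on the right Lcn2-/- minus WT under CCl4 and in controls; filled points passed an adjusted p of 0.05. On the left Loxl1 lies at 2.78 and 3.18, Lox has the widest intervals, and on the right no point is filled.

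Most of the crosslinked substrates rose. Of 12 collagen, elastin and fibrillin genes tested, 11 rose in WT and 10 in Lcn2-/- mice and none fell, with medians of 1.97 and 2.28. Col1a1, the main chain of scar collagen, rose by 3.49 ± 0.452 in WT and 4.21 ± 0.515 in Lcn2-/- mice (adjusted p = 0.00013 and 0.00014). Col1a2 rose by 2.89 and 2.98, Col3a1 by 2.64 and 3.20 and Col6a1 by 2.71 and 2.66. Col5a3 was the member of the list that passed in neither genotype, at -0.28 and -0.08 (adjusted p = 0.336 and 0.854), and was named after its values were seen. The summed signal of the list was 39060 to 95910 in WT controls and 154100 to 368400 after CCl4, and 24970 to 29720 against 126000 to 206900 in Lcn2-/- mice.

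Genes that fold and further modify collagen chains were divided. Of 16 tested, 6 rose in both genotypes (5 without P3h2, which passed the filter on dim probes through its CCl4 arrays alone), 2 fell in WT and 1 in Lcn2-/- mice, with medians of 0.25 and 0.38. Serpinh1, the collagen chaperone HSP47, rose by 1.72 ± 0.213 and 1.87 ± 0.243 (adjusted p = 9.21e-05 and 0.000222). Fkbp10, a prolyl isomerase that helps Plod2 act on telopeptides, rose by 1.63 and 1.73 (adjusted p = 0.000496 and 0.00142). The prolyl 3-hydroxylase relative P3h3 rose by 1.21 and 1.23 (adjusted p = 3.76e-05 and 0.000155). P3h2 was not well above background on any control array and was at least 2.78-fold higher after CCl4 in WT and at least 3.40-fold in Lcn2-/- mice. P4hb, the subunit that P4ha1 and P4ha2 share, was at -0.01 ± 0.107 and 0.12 ± 0.121 and passed in neither; it was named after its values were seen.

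Among procollagen processing and other crosslinking genes, of 18 tested, 11 rose in WT and none fell, and 8 rose and 1 fell in Lcn2-/- mice, with medians of 0.88 and 0.95. Postn, a matrix protein that binds collagen and lysyl oxidase activators, rose by 1.83 and 1.97 (adjusted p = 4.54e-06 and 1.14e-05). Tnxb, a tenascin of collagen fibrils, rose by 2.01 and 1.72, Adamts2, which removes the procollagen N-propeptide, by 1.91 and 1.74, and Fbln5, an elastic fibre protein, by 1.27 and 1.57; each passed in both genotypes. Tgm2, the tissue transglutaminase, was 0.43 and 0.50 higher and passed in neither (adjusted p = 0.284 and 0.302), and was named after its values were seen.

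Of 12 genes responsive to transforming growth factor beta, 9 rose in WT and 6 in Lcn2-/- mice and none fell, with medians of 0.85 and 0.97. Ltbp2, a latent TGF-beta binding protein of microfibrils, rose by 3.67 and 3.46 (adjusted p = 1.42e-05 and 9.41e-05). The ligand Tgfb3 rose by 2.63 and 2.29 (adjusted p = 3.09e-05 and 0.000426), and Pmepa1, which dampens SMAD signalling, by 1.59 and 1.73 (adjusted p = 7.56e-05 and 0.000184). Ccn2 rose by 1.83 in WT (adjusted p = 0.00255) and was 1.24 higher in Lcn2-/- mice (adjusted p = 0.0583). None of these 12, nor of the substrate, folding or processing lists, passed the threshold by genotype within a treatment, as none of the enzymes did. Every substrate gene tested was lower in Lcn2-/- mice in both treatments. Under CCl4 the differences ran from -0.08 (Col4a2) to -0.99 (Col1a1, adjusted p = 0.355). In controls they ran from -0.16 (Col5a2) to -1.71 (Col1a1, adjusted p = 0.224), with Eln nearest the threshold (-1.09, adjusted p = 0.0715). The other lists held genes of both signs.

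**Figure D4:**
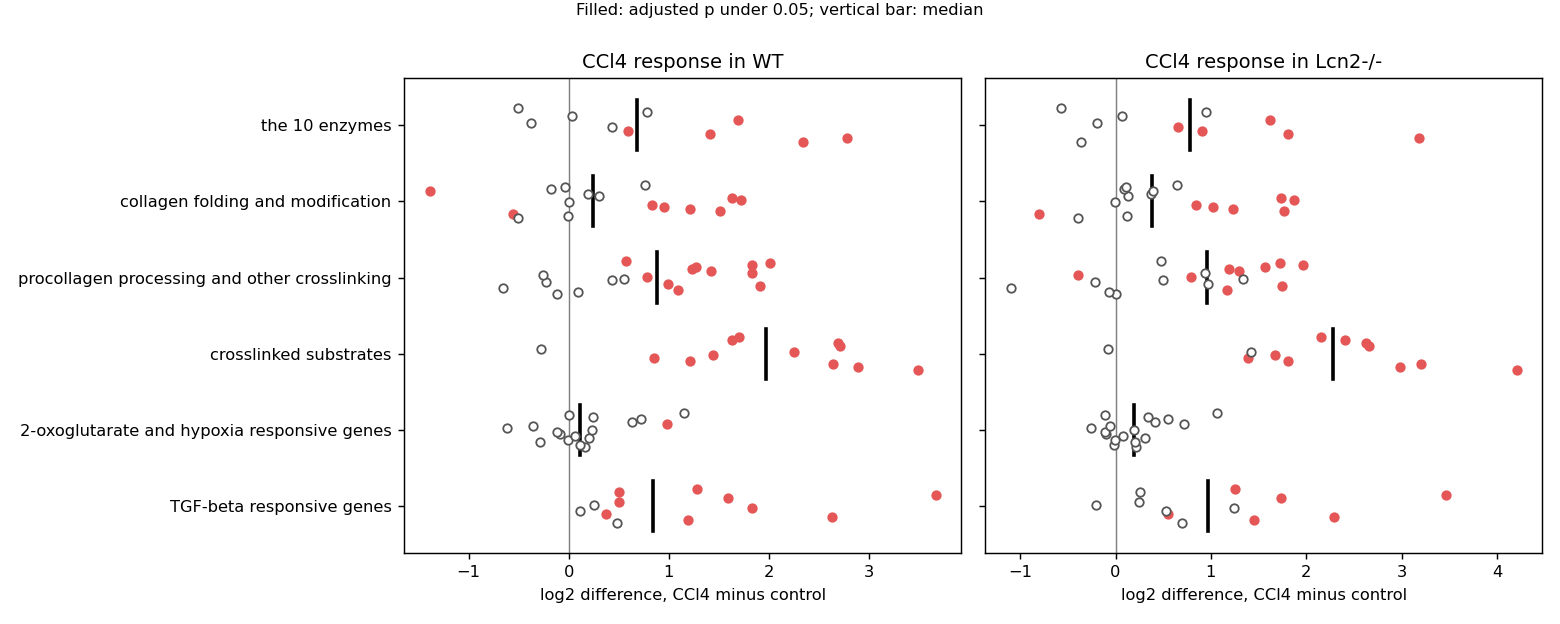
Log2 differences (x axis, CCl4 minus control) of the 10 enzymes and of the genes of 5 related lists in WT (left) and Lcn2-/- mice (right); each point is a gene, filled where the adjusted p was under 0.05, and vertical bars are medians. The substrates have the highest median (1.97 and 2.28), the oxygen-sensing genes the lowest (0.11 and 0.19), and the enzymes lie between (0.68 and 0.78).

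Among non-member genes, the profiles closest to Loxl1 over the 16 arrays, by root mean square difference of mean-centred log2 signal, were Mfap2 (0.31) and Mfap4 (0.325), microfibril proteins, and a transcript listed without a gene symbol (0.328); the profile of Loxl1 itself spread by 1.56. Col5a1 (0.176) and Col4a1 (0.209), collagen chains, and Msantd3 (0.224) were closest to Loxl2, against a spread of 0.889. For Plod2 they were Rhoc (0.287), B3gnt9 (0.292) and Col5a1 (0.297), and the closest other enzyme was Loxl2 (0.289). Reep5 (0.178) was the nearest named gene to Loxl3, with an unnamed probe at 0.179 and Gm1673 at 0.18, against a spread of 0.441. Zmat3 (0.169), Apoc2 (0.17) and Tmem184c (0.171) were nearest to Loxl4, against a spread of 0.369. For Lox the closest was Il21r at 0.686, then an unnamed transcript at 0.724 and Gm5547 at 0.733, against a spread of 1.36. These distances include the shift between treatments that most of these genes share.

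Markers of the cells that can make or accompany these enzymes moved with treatment, and their part in the result was not tested. Of 10 stellate cell and myofibroblast markers, 7 rose and 1 fell in WT and 6 rose in Lcn2-/- mice, with summed signals of 36560 to 61500 in WT controls and 60880 to 123700 after CCl4, and 37370 to 44990 against 45370 to 91430 in Lcn2-/- mice. Vim, Pdgfrb and Pdgfra rose in both genotypes, by 2.15, 1.71 and 1.61 in WT, and Cygb by 1.36 in WT. Acta2, the myofibroblast actin, was 0.37 higher in WT and did not pass (adjusted p = 0.613). Ngfr was the marker that fell in WT, at -0.88 (adjusted p = 0.00695). Tagln was at -0.79 in WT and -0.85 in Lcn2-/- mice and passed in neither (adjusted p = 0.208 and 0.255). Acta2, Ngfr and Tagln were named after their values were seen. Of 9 portal fibroblast and mesothelial markers, 5 rose in WT and 4 in Lcn2-/- mice. Their summed signals were 6249 to 12150 in WT controls and 19370 to 27690 after CCl4, and 5153 to 6717 against 10750 to 26020 in Lcn2-/- mice. Mfap4, Cd34 and Gli1 rose by 2.93, 2.13 and 1.79 in WT, and Upk3b by 1.81.

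Macrophage markers rose for 5 of 8 in both genotypes, with summed signals of 52980 to 151400 in WT controls against 149800 to 240200 after CCl4, and 45580 to 115500 against 96720 to 194800 in Lcn2-/- mice. Trem2, a receptor of scar-associated macrophages, rose by 3.81 in WT and 4.06 in Lcn2-/- mice. Gpnmb rose by 7.10 in WT and at least 714-fold in Lcn2-/- mice, whose controls were not well above background. Itgax rose by 4.08 and 4.69 and Lgals3 by 2.97 and 2.45. Of 5 Kupffer cell markers, 2 fell in WT, Timd4 and Clec4f, and none passed in Lcn2-/- mice. Both number 3 controls stood apart in their summed signal, at 212800 in WT and 231700 in Lcn2-/- mice, against 64960 to 98440 on the other controls and 50170 to 85510 after CCl4. Neutrophil markers rose for 5 of 8 in WT, among them Ngp by 4.09, S100a8 by 2.31 and S100a9 by 1.96. In Lcn2-/- mice 1 rose, Retnlg by 2.84. Whether the genotypes differ in this was not shown, as 0 of 8 passed the interaction. Only 1 of 4 WT and 1 of 3 Lcn2-/- controls had Ngp well above background. Its CCl4 arrays thus carried it past the filter on dim probes, and the size of its rise is uncertain. The 3 that did not pass in WT were Mpo (2.92), Ly6g (-0.06) and Elane (-0.27), named after their values were seen. The summed signal of neutrophil markers was 11570 to 44980 in WT controls and 38230 to 82490 after CCl4. WT control 3 held the 44980, against 11570 to 16030 on the other WT controls. Lcn2-/- control 3 stood apart at 60680, above the 27140 to 38830 of the Lcn2-/- CCl4 arrays, while the other Lcn2-/- controls were at 10460 and 11550. Of 6 endothelial markers, 1 rose in both genotypes, Lyve1, and Stab2 fell in WT. Cholangiocyte markers passed in no comparison (0 of 6). Of 4 adipose markers 1 was tested and did not pass, and of 5 pancreas markers 2 were tested, of which Ctrb1 fell in WT; Adipoq, Plin1, Lep, Cpa1, Pnlip and Prss2 failed the filter on dim probes.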

How the data were processed

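Processed signal intensities deposited in the Feature Extraction scanner files (gProcessedSignal, background-subtracted per the file headers; mm9 design) of 16 arrays were taken as log2 and quantile normalized. The authors' deposited log2 value table, which matched log2 of median minus local background, quantile normalized, within 0.05 for 99.86% of values, served as an alternative; the submitters' processing notes name limma. Control and outlier spots were left out, probes averaged, and a probe was kept where 3 or more arrays had it well above background. The highest-mean probe stood for a gene. R 4.3.3 and limma 3.58.1 fitted 1 model over the 4 groups with 5 contrasts. For the CCl4 response in WT, the fit to simulated data recovered 60% of genes changed by 1 log2 unit and 88% by 2. For Lcn2-/- mice it recovered 54% and 82%. The simulation changed far fewer genes than passed here and had independent noise and no slide effect. These shares therefore describe that setting only. The labels number replicates without naming animals. For its array comparison of CCl4-treated mice the paper gives an n of 4 to 5, which matches the CCl4 arrays per genotype. The p-values measure the spread between these samples, which may be technical if arrays share an animal. The number of arrays limits the precision.

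Members and lists were chosen with earlier results of these data known. The rule for named genes took all members, from each list up to 4 genes past the threshold in either response with the largest mean change, and the 3 nearest profiles of each member that passed; exceptions are marked. Same-numbered WT control and Lcn2-/- control arrays deviated together (r = 0.233 to 0.552 over 3 pairs), the highest for the number 3 controls. Differently numbered arrays were not compared, so whether the numbers pair the controls was not settled. Other group pairs fell below 0.1 somewhere.

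Alternatives were 75th percentile scaling, normexp with an offset of 50, the authors' table, no dim filter, slide as fixed or random block, within-slide fits, replicate block, array weights, trended robust variances, all probes averaged, and each array left out. Slide tier as a block and the removal of both number 3 controls were added after the data were seen.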

Additional observations from a re-analysis of the deposited data

Results flagged for a closer look

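In 30 sets of 4 or 5 arrays (10 enzymes in 3 groups), 2 values stood far from the rest of their group by Dixon's criterion, where chance alone marks about 1 set in 20. Loxl2 in WT control 3 read 11.43, against 10.17 to 10.34 on the other WT controls. Plod1 in WT CCl4 5 read 10.89, against 9.38 to 9.59 on the other WT CCl4 arrays.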

How the results depend on the processing

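Loxl1 passed in both genotypes under each alternative run. The count of members past the threshold in WT (5) fell to 1 with slide as a fixed block and to 1 within slide, where a single array stands for CCl4, and rose to 9 with array weights, fits that called 5.32%, 2.89% and 28.8% of all genes; over fits without 1 array it ranged from 3 to 8, against 10.2% to 20.8% of all genes. In Lcn2-/- mice (5) it was 1 with slide as a fixed block, against 1.75% of all genes, 7 with array weights, against 28.6%, and 4 to 6 without 1 array, against 6.9% to 13.1%. In controls it was 3 with array weights in place of 0, against 5.14% of all genes. It was 0 in every fit without 1 array for the genotype in controls and under CCl4 and for the interaction. With the replicate block the counts were 4 and 4 in WT and Lcn2-/- mice, against 15.4% and 12.2% of all genes, and 0 elsewhere. In WT, Lox and Loxl3 no longer passed (adjusted p = 0.105 and 0.0534) and Plod1 did (-0.67, adjusted p = 0.0185). In Lcn2-/- mice Loxl4 no longer passed (adjusted p = 0.0675), and no other call changed. Replicate number 5 occurs only in WT CCl4, so this block also takes that array out of the comparison. Without WT CCl4 5 alone, Plod1 was also -0.67 and Lox also missed. For Plod1 and Lox the block therefore cannot separate pairing by number from the loss of WT CCl4 5, and the part of either was not tested.

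Differences that turned sign were small and not past the threshold: Plod3 in WT at -0.03 with 75th percentile scaling, and Plod1 in Lcn2-/- mice at 0.08 with all probes averaged. Under CCl4, Lcn2-/- minus WT turned for Loxl3 to 0.02 with normexp, 0.03 with the authors' table and 0.01 with slide as a fixed block and within slide, for Loxl2 to 0.07 with all probes averaged and for P4ha2 to -0.20 with tier as a block. In controls it turned for P4ha2 to -0.23 with tier as a block and for Plod2 to 0.16 without both number 3 controls. The interaction turned for Plod2 to 0.07 and Plod3 to -0.01 with the authors' table, for P4ha2 to 0.03 with slide or tier as a block and for Plod3 to -0.03 without both number 3 controls. The cause was not tested.

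Leaving out 1 array turned the sign in some fits for Lox in Lcn2-/- mice (-1.01 to 0.87) and Plod3 in WT (-0.03 to 0.12). Under CCl4 this held for Loxl2 (-0.31 to 0.03) and Loxl3 (-0.16 to 0.02), in controls for Plod1 (-0.04 to 0.23), Plod2 (-0.50 to 0.10) and P4ha1 (-0.07 to 0.25), and in the interaction for Plod2 (-0.42 to 0.18), Plod3 (-0.05 to 0.13), P4ha1 (-0.07 to 0.45) and P4ha2 (-0.20 to 0.13).

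Scaling to the 75th percentile moved the median of all genes by -0.134 in WT and -0.121 in Lcn2-/- mice and left Lox and Loxl3 in WT and Loxl4 in Lcn2-/- mice short of the threshold, while P4ha2 passed in WT (-0.55). Averaging all probes, the chromosome 2 probe included, lowered the Loxl2 rise to 0.71 and 1.05. Lox, Loxl4 and the controls of Plod2 lie near background, where normexp lowered the Lox rise to 0.83 and the Plod2 rise to 0.94 in WT. Within-slide fits gave no value for the Lcn2-/- response or the interaction.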
